A study of Mus musculus with 15 samples.

Results

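Expression of 10 genes that mark opposite ends of the life of an axon was measured in mouse brainstem. The genes were listed by name, 5 for the growth cone (Gap43, Stmn2, Tubb3, Dpysl2 and Dpysl3) and 5 for the mature axon and its nodes (Cntn2, Nfasc, Ank3, Cntnap1 and Nefh), and each matched 1 of the 57180 gene identifiers in the count tables. All 10 passed the filter on low counts in every comparison. The 15 libraries of polyA RNA came from brainstem of C57BL/6 mice in 2 experiments. The AMPK experiment held 3 WT (AMPK+/+) and 3 AMPK-/- libraries, the deleted gene being Prkaa2, which encodes the α2 catalytic subunit of the AMP-activated protein kinase. The Lmx1b experiment held 3 WT (LMX1B+/+), 3 LMX1B+/- and 3 LMX1B-/- libraries, written Lmx1b+/- and Lmx1b-/- here. The labels give no age, sex or litter. The study describes newborn mice for its AMPK work and prenatal brainstem for Lmx1b, and the experiments are called neonatal and prenatal on that basis. The age of the libraries called neonatal is in doubt. With the WT libraries of both experiments scaled together, neonatal WT averaged 10295 CPM of Mbp, encoding myelin basic protein, against 60.4 CPM in prenatal WT. For Top2a, a gene of dividing cells, the averages in this joint scaling were 0.812 and 69.96 CPM. In mice most myelin is laid down in the weeks after birth. The labels do not say whether a library is 1 animal or a pool, so the p-values measure the spread between libraries, which may be technical.

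A growing axon ends in a growth cone, a motile tip of actin filaments and dynamic microtubules that reads guidance cues. Once the axon has reached its target, the shaft is stabilised by neurofilaments, an ankyrin and spectrin scaffold gathers sodium channels at the initial segment and the nodes of Ranvier, and adhesion molecules fasten the myelin loops beside each node. Gap43 encodes a membrane phosphoprotein of the growth cone, Stmn2 a tubulin-binding protein that promotes microtubule turnover, Tubb3 the neuron-specific β-tubulin, and Dpysl2 and Dpysl3 the collapsin response mediators CRMP2 and CRMP4. Cntn2 encodes the adhesion molecule TAG-1, found beside the paranode of mature axons and also on some growing axons. Nfasc encodes neurofascin, with a neuronal form at the initial segment and node and a glial form at the paranode. Ank3 encodes ankyrin-G, the scaffold of the initial segment and node, Cntnap1 encodes Caspr of the axonal paranode, and Nefh the heavy neurofilament chain.

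Cntn2 and Nfasc lie next to each other in the genome, on the same strand, with 0 protein-coding genes between them in the GENCODE annotation, and their levels fell together in 2 of the comparisons below. The 250 bases before their annotated starts are shown with those of Tubb3, since these 3 of the 10 genes have an entry in the RefSeq promoter table used (build GRCm38.p6). Capitals mark GGGCGG, the GC box core.

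Cntn2, chr1:132542941-132543190, minus strand: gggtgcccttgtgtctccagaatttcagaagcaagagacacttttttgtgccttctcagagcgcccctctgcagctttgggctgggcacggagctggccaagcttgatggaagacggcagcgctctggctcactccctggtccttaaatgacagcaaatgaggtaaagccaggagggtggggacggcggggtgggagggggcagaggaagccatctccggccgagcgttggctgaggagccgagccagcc

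Nfasc, the more upstream of its 2 starts, chr1:132707327-132707576, minus strand: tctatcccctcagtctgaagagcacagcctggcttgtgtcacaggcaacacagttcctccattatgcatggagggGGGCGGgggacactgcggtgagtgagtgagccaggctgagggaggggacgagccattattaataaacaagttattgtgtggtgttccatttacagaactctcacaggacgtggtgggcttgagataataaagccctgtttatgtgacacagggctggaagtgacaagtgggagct

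Tubb3, chr8:123411303-123411552, plus strand: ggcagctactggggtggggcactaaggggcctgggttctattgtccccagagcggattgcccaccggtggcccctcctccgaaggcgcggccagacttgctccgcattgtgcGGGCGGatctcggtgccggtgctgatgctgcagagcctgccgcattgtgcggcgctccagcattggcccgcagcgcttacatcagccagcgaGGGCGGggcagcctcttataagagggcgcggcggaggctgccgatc

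The search covered 5 motifs on both strands: the GC box core GGGCGG, the TATA box TATAAA, the homeodomain core TAATTA, the cyclic AMP response element TGACGTCA and the E-box CANNTG. The GC box core GGGCGG occurred 2 times before Tubb3, 1 time before Nfasc and 0 times before Cntn2, and 32.7% of the 32851 windows of this length in the table hold it. CANNTG occurred once before each of Cntn2 and Nfasc, against 66.2% of all windows. TATAAA (12.4% of windows), TAATTA (4.84%) and TGACGTCA (1.55%) were not among the letters of the 3 windows. Before the second annotated start of Nfasc neither GGGCGG nor CANNTG occurred.

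Library depth was 14975095 to 17384171 counts in 4 of the 6 neonatal libraries but 291212 in WT 2 and 335986 in AMPK-/- 3, and 28833130 to 37441679 in the 9 prenatal libraries. In the 2 shallow libraries each of the 10 genes rested on 11 to 195 counts, against 916 or more in the other 4 neonatal libraries. Levels are CPM, counts scaled to a fixed library total, after TMM scaling within an experiment, and a count of 3, the limit that 0 counts allow, corresponds to 0.0676 to 0.198 CPM in the deep libraries and 9.07 to 9.98 CPM in the shallow ones. A gene is called where edgeR's quasi-likelihood test gives a Benjamini-Hochberg adjusted p under 0.05 over all genes tested. The targeted genes were checked first. Lmx1b stood at 0.848 to 1.45 CPM in the libraries labelled Lmx1b-/- and at 9.73 to 22.5 CPM in prenatal WT. In the libraries labelled Lmx1b+/- it stood at 11.9 to 30.5 CPM, overlapping WT. Prkaa2 ranged from 21.9 to 29.7 CPM in neonatal WT and from 12.1 to 25.4 CPM in the libraries labelled AMPK-/-, so its count over the whole gene did not separate them. These genotypes therefore rest on the labels.

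**Figure D1:**
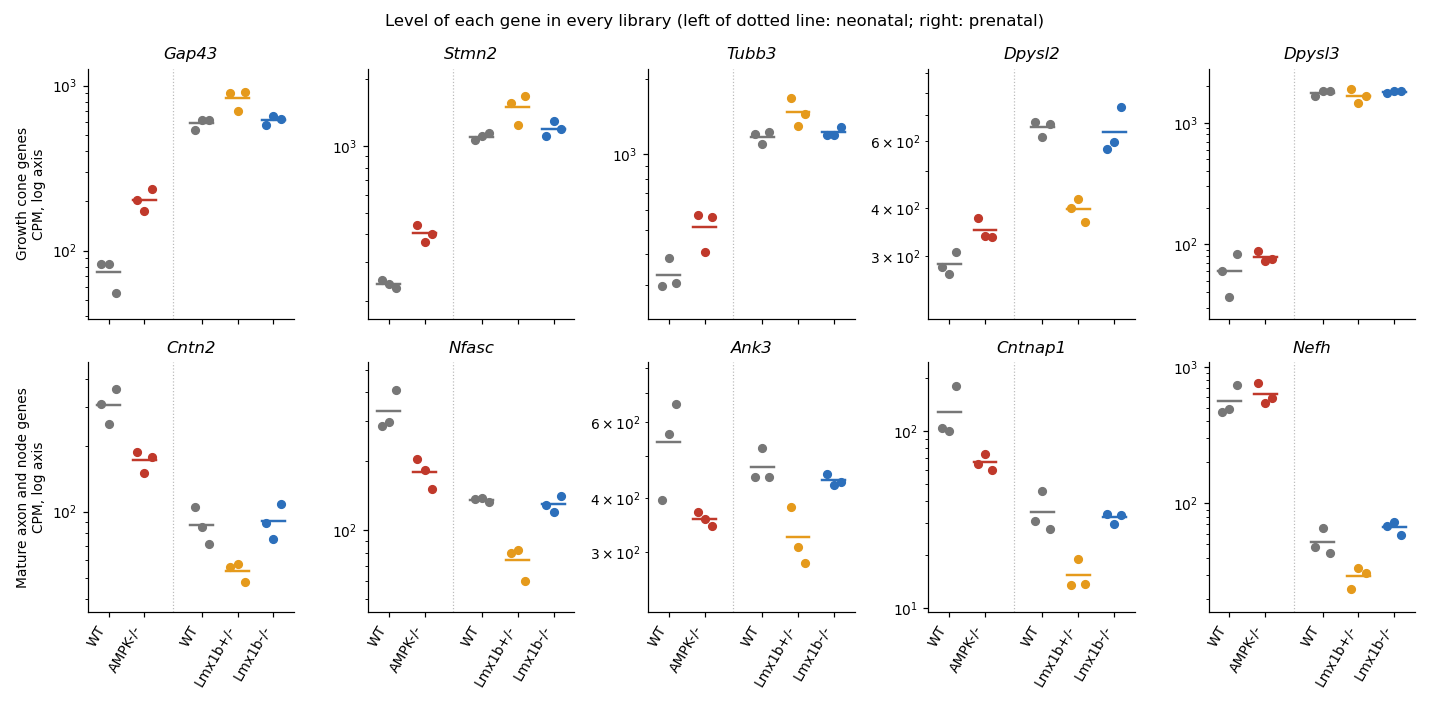
CPM of each of the 10 genes in all 15 libraries (points) with the group mean (line), on log axes, with the neonatal libraries left of the dotted line. CPM were scaled within each experiment, so the sides have no common scaling. The growth cone genes are lower on the neonatal side except that Dpysl2 overlaps (378 CPM in AMPK-/- 1, 369 CPM in Lmx1b+/- 3). Most mature axon genes are higher there, and the Lmx1b+/- libraries lie below both other prenatal genotypes for all 5 mature axon genes.

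The first comparison asked which of these genes differ between neonatal brainstem labelled AMPK-/- and WT. Gap43, Stmn2 and Tubb3 rose, and Cntn2, Nfasc, Ank3 and Cntnap1 fell. Of the 5 growth cone genes 3 were called higher (Gap43, Stmn2 and Tubb3) and 0 lower, while 3.77% of the 17397 genes tested were called higher. Of the 5 mature axon genes 4 were called lower (Cntn2, Nfasc, Ank3 and Cntnap1) and 0 higher, while 5.17% of all genes were called lower. The CPM of the 2 genotypes did not overlap for 4 growth cone and 4 mature axon genes, against 26.6% of all genes tested.

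Gap43 changed most. WT 1 to 3 held it at 83.4, 83.2 and 55.2 CPM, and the libraries labelled AMPK-/- 1 to 3 held it at 202.4, 173.9 and 236 CPM. Every AMPK-/- library was at least 2 times the highest WT library, a log2 fold change of 1.48 (SE 0.19, n = 3 and 3, edgeR adjusted p = 0.000124). In 1.97% of the genes tested the absolute log2 fold change was larger. Stmn2 stood at 250.2, 239.6 and 229 CPM in WT against 439.7, 369.5 and 402 CPM in AMPK-/-, again without overlap (log2 fold change 0.75, SE 0.16, edgeR adjusted p = 0.00525). Tubb3 stood at 298, 386 and 307 CPM in WT against 569, 407 and 562 CPM in AMPK-/-. The lowest AMPK-/- library lay just above the highest WT library, and the difference was called (log2 fold change 0.65, SE 0.18, edgeR adjusted p = 0.022).

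The mediators of collapsin signalling were not called. Dpysl2 was at 281, 269.5 and 307 CPM in WT against 378, 338 and 335 CPM in AMPK-/-, without overlap, with a log2 difference of 0.29 (95% interval -0.035 to 0.61, edgeR adjusted p = 0.263). Dpysl3 was at 60.3, 36.6 and 82.8 CPM in WT against 87.5, 72.6 and 75.5 CPM in AMPK-/-. These values overlapped, and WT 2 rested on 11 counts (log2 difference 0.26, 95% interval -0.16 to 0.67, edgeR adjusted p = 0.459).

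Among the mature axon genes Cntn2 stood at 309.9, 249.6 and 363 CPM in WT and 188, 150.3 and 178 CPM in AMPK-/- (log2 fold change -0.88, SE 0.17, edgeR adjusted p = 0.00344). Its neighbour Nfasc stood at 286, 296 and 411 CPM in WT and 205, 183 and 151 CPM in AMPK-/- (log2 fold change -0.86, SE 0.18, edgeR adjusted p = 0.00439). For both genes every WT library was above every AMPK-/- library. Cntnap1 stood at 104, 99.8 and 179.8 CPM in WT and 65.3, 73.8 and 60.4 CPM in AMPK-/- (log2 fold change -0.97, SE 0.20, edgeR adjusted p = 0.00545). Ank3 stood at 395, 562 and 660.2 CPM in WT and 371, 357 and 344 CPM in AMPK-/- (log2 fold change -0.58, SE 0.18, edgeR adjusted p = 0.044). For these 2 genes WT 3 was the highest library, and WT 1 lay close to the AMPK-/- libraries for Ank3. The neurofilament gene Nefh did not move with the others: it stood at 464, 496 and 738 CPM in WT and 764, 547 and 589 CPM in AMPK-/- (log2 difference 0.16, 95% interval -0.23 to 0.55, edgeR adjusted p = 0.662). In bulk tissue fewer cells of a type and less RNA per cell cannot be told apart.

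**Figure D2:**
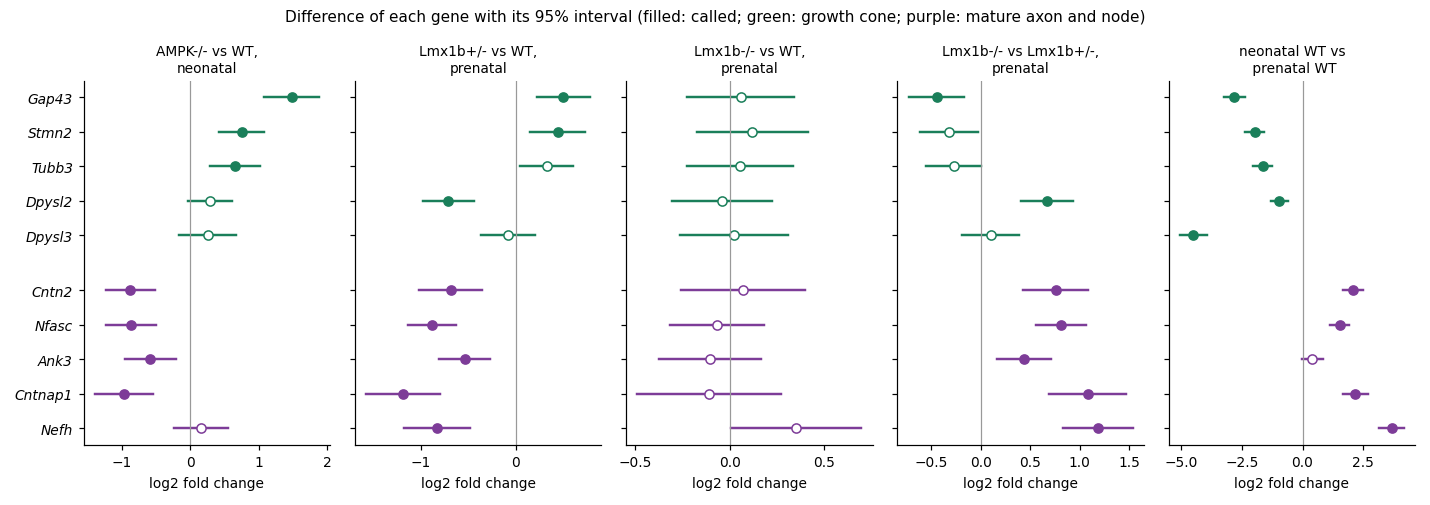
Log2 fold change of each gene (point) with its 95% interval (line) in the 5 comparisons, each panel on its own axis, with filled points where the edgeR adjusted p is under 0.05. Gap43 at 1.48 and Cntnap1 at -0.97 are the extremes of the AMPK panel, and the Lmx1b-/- against WT panel has no filled point.

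Without the 2 shallow libraries the log2 differences kept their direction (Gap43 1.45, Stmn2 0.76, Cntn2 -0.99, Cntnap1 -1.02), but 0 of the 10 genes were called, with adjusted p of 0.12 or more for each, and edgeR called 6 genes in all. WT 3 held 501 CPM summed over 8 skeletal muscle markers, against 4.62 to 13.1 CPM in the other 5 neonatal libraries; without it Cntnap1 was at -0.57 (adjusted p = 0.0768) and Ank3 at -0.36 (adjusted p = 0.275), while Cntn2 and Nfasc were still called. Ank3 also lost its call without WT 2 or any 1 of the AMPK-/- libraries (-0.54 to -0.60, adjusted p of 0.0745 to 0.166), and Tubb3 without AMPK-/- 1 (0.56, adjusted p = 0.11) or AMPK-/- 3 (0.615, adjusted p = 0.0952). The part of muscle RNA in these values was not tested. Mitochondrial transcripts made up 20 to 21.7% of counts in AMPK-/- and 10.4 to 13.9% in WT. Summed markers of neurons (3660 to 4090 CPM in WT, 3922 to 4201 CPM in AMPK-/-) and of oligodendrocytes (14046 to 24398 against 18138 to 23023 CPM) overlapped between genotypes, and 0 of 10 oligodendrocyte markers were called. Of the 8 neuronal markers Elavl4 (0.61) and Syt1 (0.58) were called higher and Rbfox3 (-1.08) lower, and 5 of 8 had values that did not overlap. Of 8 genes that mark position in the brainstem 3 were called higher, among them Tph2, of serotonin neurons (68.9 against 3.37 CPM, log2 fold change 5.26) and Gata3 (2.07). The 5 Hox genes among them were not called (-0.89 to -0.31). The part of where the tissue was taken in the values of the 10 genes was not tested.

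Of 24 further growth cone and axon outgrowth genes, all tested, 4 were called higher and 2 lower, with 12 on either side of 0 and a median log2 difference of 0.05 beside -0.01 over all genes. Tubb2a, a β-tubulin, rose by 0.65 (SE 0.16, edgeR adjusted p = 0.0129) and Cfl1, encoding the actin-severing cofilin, rose by 0.63 (SE 0.17, edgeR adjusted p = 0.0237). In the other direction Dbn1, encoding the actin-binding drebrin, was at -0.65 (SE 0.19, adjusted p = 0.0301), and Fscn1, encoding the filopodial actin bundler fascin, was at -0.72 (SE 0.23, adjusted p = 0.04997). Of 24 further genes of the mature axon, initial segment and node, 6 were called lower and 0 higher (median -0.27). Over all genes the shortest of 4 equal groups by length had a median of 0.37 and the longest -0.22. No length trend was removed from the values of these 2 lists of 24 genes, so the part of length in them was not tested. Kcna1, a potassium channel subunit clustered beside the paranode, fell most, at -1.32 (SE 0.29, edgeR adjusted p = 0.00696). Its WT libraries were widely spread, averaging 113 CPM (SD 78.9), against 52 CPM (SD 7.62) in AMPK-/-. Sptbn4, the βIV spectrin that anchors to ankyrin-G, was at -1.19 (SE 0.22, edgeR adjusted p = 0.00205) and Scn4b, a sodium channel β subunit, at -0.96 (SE 0.20, adjusted p = 0.0052). WT averaged 95.4 CPM (SD 28.7) for Sptbn4 and 285 CPM (SD 103) for Scn4b, against 39.5 (SD 12.2) and 151 CPM (SD 11.8) in AMPK-/-.

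The second comparison set the libraries labelled Lmx1b+/- against prenatal WT. All 5 mature axon genes were called lower and 0 higher, while the growth cone genes split, with 2 called higher (Gap43 and Stmn2) and 1 lower (Dpysl2). Of the 21729 genes tested, 19.4% were called higher and 17.3% lower. Every mature axon gene and 4 of the 5 growth cone genes had values that did not overlap between the genotypes, against 45.3% of all genes tested. With 7977 genes called in all, these counts stand against a high background.

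Cntnap1 fell most, from 31.1, 45.9 and 27.9 CPM in WT to 13.4, 18.9 and 13.7 CPM in Lmx1b+/- (log2 fold change -1.19, SE 0.18, edgeR adjusted p = 0.000263). Nfasc fell from 138, 138 and 133 CPM to 79.8, 81.7 and 60.3 CPM (log2 fold change -0.88, SE 0.12, edgeR adjusted p = 0.000102). Nefh fell from 47.9, 65.7 and 43.4 CPM to 23.6, 33.5 and 31 CPM (log2 fold change -0.83, SE 0.16, edgeR adjusted p = 0.00151). The highest Lmx1b+/- library lay below the lowest WT library for each of these genes. Cntn2 fell from 105, 84.8 and 71 CPM to 56.1, 57.5 and 48.1 CPM (log2 fold change -0.69, SE 0.15, edgeR adjusted p = 0.00357). Ank3 fell from 448, 521 and 448 CPM to 382, 309 and 284 CPM (log2 fold change -0.54, SE 0.13, edgeR adjusted p = 0.00463), the smallest change of the 5.

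Gap43 stood at 542, 621 and 623 CPM in WT and rose to 907, 705 and 919.6 CPM in Lmx1b+/- (log2 fold change 0.50, SE 0.13, edgeR adjusted p = 0.0089). Stmn2 stood at 1059, 1104 and 1145 CPM in WT and rose to 1560.3, 1245 and 1683 CPM (log2 fold change 0.44, SE 0.14, edgeR adjusted p = 0.0223). In both genes Lmx1b+/- 2 was the nearest to WT. Tubb3 was not called, at 1207, 1104 and 1226 CPM against 1686, 1294 and 1456 CPM (log2 difference 0.33, 95% interval 0.048 to 0.61, edgeR adjusted p = 0.0633).

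The 2 collapsin response mediators went separate ways from that trio. Dpysl2 fell from 674, 613 and 666 CPM to 401, 424 and 369 CPM (log2 fold change -0.71, SE 0.12, edgeR adjusted p = 0.000688), a drop of the size seen in the mature axon genes. Dpysl3 was at 1648, 1827 and 1836 CPM in WT and 1911, 1462 and 1652 CPM in Lmx1b+/-, with overlapping values (log2 difference -0.08, 95% interval -0.37 to 0.21, edgeR adjusted p = 0.673). The Dpysl3 to Dpysl2 ratio of RPKM, the deposited level per length, was 1.67 to 2.04 in WT and 2.36 to 3.26 in Lmx1b+/-.

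The rises were less stable than the falls to the scaling and to leaving out single libraries, but not to the removal of length and GC trends given below. With library size alone in place of TMM scaling the median log2 difference of all genes shifted by -0.24 and Gap43 was at 0.25 (adjusted p = 0.275) and Stmn2 at 0.18 (adjusted p = 0.433), while all 5 mature axon genes were still called lower; leaving out WT 1 or 2 or Lmx1b+/- 1 or 3 ended the Stmn2 call (0.35 to 0.44, adjusted p of 0.0527 to 0.0799), and Tubb3 gained a call without Lmx1b+/- 2 (0.44, adjusted p = 0.0168). Other lists moved with this genotype. All 6 red blood cell markers were called higher, and their sum was 510 to 1251 CPM in WT, 3549 to 7513 CPM in Lmx1b+/- and 1061 to 2382 CPM in Lmx1b-/-. Of 10 oligodendrocyte markers 8 were called lower, the summed level being 202 to 250 CPM in WT and 142 to 171 CPM in Lmx1b+/-, and 3 of 6 astrocyte markers were called lower. Of the 8 genes that mark position in the brainstem 4 were called higher and 0 lower (median 0.74): Hoxa5 (1.43), Hoxb2 (0.97), Hoxb3 (0.81) and Hoxa2 (0.81). Of 8 general neuronal markers 4 were called lower and 0 higher (sum 2775 to 3250 CPM in WT, 2481 to 2851 CPM in Lmx1b+/-). Mitochondrial transcripts were 5.57 to 6.74% of counts in WT and 9.58 to 14.7% in Lmx1b+/-. The part of these in the values of the 10 genes was not tested. With mitochondrial, red blood cell and the most abundant genes removed before scaling, the counts of members called were the same. That removal changes the scaling only, so it cannot show whether a different mix of cells enters these values.

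Of 24 further mature axon genes 18 were called lower and 1 higher, where 17.3% of all genes were called lower and 19.4% higher (median log2 difference -0.64, beside -0.03 over all genes). Scn8a, the main sodium channel of mature nodes, was at -0.97 (SE 0.10, edgeR adjusted p = 2.16e-05) and Kcna2, the partner of Kcna1 beside the paranode, at -1.01 (SE 0.11, adjusted p = 2.22e-05). Of 24 further outgrowth genes 7 were called higher and 6 lower, with 12 on either side of 0 (median 0.03). Stmn3, a relative of Stmn2, rose by 0.72 (SE 0.11, edgeR adjusted p = 0.00029). Map1b, a microtubule-associated protein of growing axons, and L1cam, an adhesion molecule of axon bundles, were lower, at -0.74 (SE 0.14, adjusted p = 0.00108) and -0.77 (SE 0.15, adjusted p = 0.00133).

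Gene length ran through both of these comparisons. The length implied by each gene's counts and RPKM was 1523 bases for Gap43 and 1868 bases for Tubb3. It was between 3994 and 5875 bases for Nefh, Dpysl2, Stmn2 and Cntnap1, and 6608 bases for the growth cone gene Dpysl3. Cntn2, Nfasc and Ank3 were the longest, at 9304, 14145 and 34838 bases. Over all genes the shortest of 4 equal groups by length had a median log2 difference of 0.37 and the longest -0.22 in AMPK-/- against WT, and 0.45 and -0.26 in Lmx1b+/- against WT. With a length trend removed from each library, Ank3 was at -0.09 (adjusted p = 0.825) in AMPK-/- and -0.07 (adjusted p = 0.674) in Lmx1b+/-, and neither was called. Gap43 in AMPK-/- was still called, at 1.24 (adjusted p = 0.0013), as were Stmn2 (0.91), Cntn2 (-0.64) and Cntnap1 (-0.79), whereas Tubb3 (0.38) and Nfasc (-0.54) were not. With length and GC trends removed together, Cntn2 (-0.41, adjusted p = 0.236) and Cntnap1 (-0.56, adjusted p = 0.119) were not called either, and Gap43 and Stmn2 were the members of the 10 still called. In Lmx1b+/- with the length trend removed Gap43 was no longer called, at 0.26 (adjusted p = 0.15), while Stmn2 and 4 of the 5 mature axon genes still were. With length and GC trends removed 2 of the 5 were, Nfasc and Cntnap1, while Cntn2 was at -0.25 (adjusted p = 0.144) and Nefh at -0.55 (adjusted p = 0.0506). In that setting Stmn2 was still called, Tubb3 gained a call (0.39, adjusted p = 0.0442) and Gap43 was not called (0.27, adjusted p = 0.115). Length and the gene sets were not independent here, and what sets the length trend was not tested. The counts and medians of the 2 lists of 24 further genes carry no correction for length in any comparison.

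**Figure D3:**
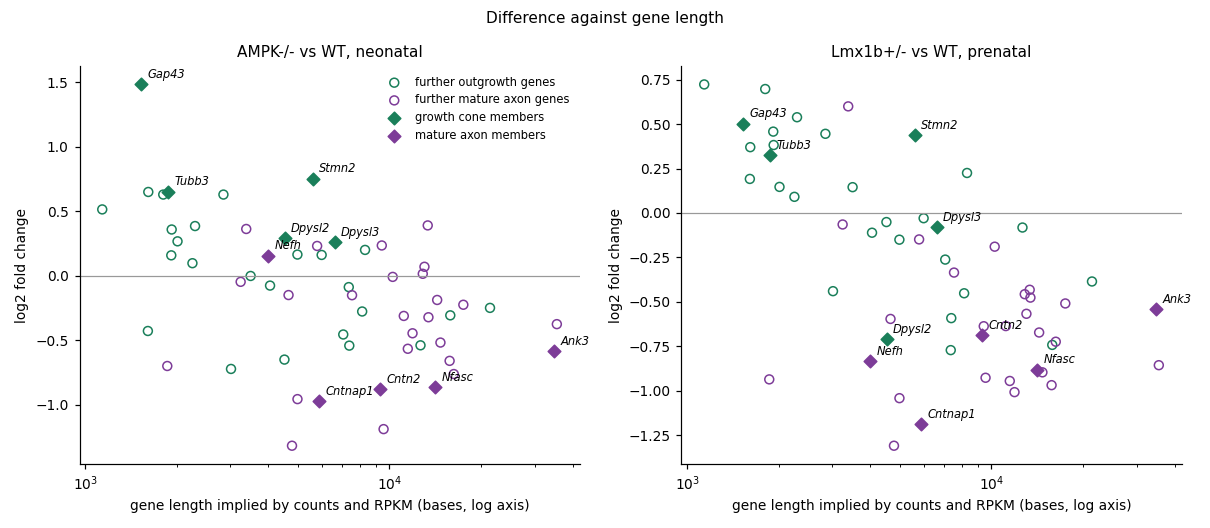
Log2 fold change against implied gene length (log axis) for the 10 genes (diamonds, named) and the 24 further genes of each kind (circles), growth cone in green and mature axon in purple. Short genes such as Gap43 and Tubb3 lie above 0 and the longest, Ank3, below 0 in both panels, while Stmn2 lies above 0 and Cntnap1 below 0 in both.

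The third comparison set Lmx1b-/- against prenatal WT. None of the 10 genes was called by edgeR, and none had values free of overlap, against 18% of all 21729 genes tested. Only 4 genes were called in all, 0% of genes higher and 0.0184% lower, with 1757 genes at an unadjusted p under 0.05 and 35 genes called by DESeq2. In these libraries Gap43 stood at 574, 658 and 628 CPM, Stmn2 at 1109, 1296 and 1187 CPM, and Tubb3 at 1195, 1192 and 1286 CPM, overlapping WT for each gene. Dpysl2 was at 571, 596 and 735 CPM and Dpysl3 at 1744, 1832 and 1818 CPM. The 95% intervals of the 5 growth cone differences lay between -0.30 and 0.41 on the log2 scale, so that changes of the size seen in AMPK-/- for Gap43 lie outside them.

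The mature axon genes of Lmx1b-/- were close to WT as well. Cntn2 was at 88.8, 75.4 and 109 CPM, Nfasc at 129, 120.4 and 141 CPM, Ank3 at 454, 429.6 and 436 CPM, and Cntnap1 at 34, 29.8 and 33.4 CPM. Their log2 differences were 0.07, -0.07, -0.10 and -0.11. Nefh was at 67.8, 73.5 and 59 CPM, and its lowest library lay under the highest WT library (65.7 CPM). At 0.35 on the log2 scale (95% interval 0.0079 to 0.70, unadjusted p = 0.0457, edgeR adjusted p = 0.617) it was the only member of the 10 with an unadjusted p under 0.05. Of the 24 further genes of each kind 0 were called in either direction (medians -0.04 for outgrowth and -0.02 for mature axon, beside 0.01 over all genes).

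Lmx1b-/- was then set against Lmx1b+/- directly, a contrast that uses the same Lmx1b+/- libraries as the second comparison. All 5 mature axon genes were called higher in Lmx1b-/-, where 11.5% of all genes were, and 0 were called lower. Of the marker lists, 7 of 10 oligodendrocyte and 4 of 6 astrocyte markers were called higher and all 6 red blood cell markers lower, and their part in these values was not tested. Nefh was 1.19 higher (SE 0.16, edgeR adjusted p = 0.000249), Cntnap1 1.08 (SE 0.18, adjusted p = 0.000917), Nfasc 0.81 (SE 0.12, adjusted p = 0.000331), Cntn2 0.76 (SE 0.15, adjusted p = 0.00313) and Ank3 0.44 (SE 0.13, adjusted p = 0.0217). Of the growth cone genes Dpysl2 was called higher, at 0.67 (SE 0.12, edgeR adjusted p = 0.00168), and Gap43 lower, at -0.44 (SE 0.13, adjusted p = 0.0243), where 14% of all genes were called lower. Stmn2 (-0.32, adjusted p = 0.103), Tubb3 (-0.27, adjusted p = 0.145) and Dpysl3 (0.10, adjusted p = 0.617) were not called. The count of growth cone genes called moved between 1 and 4 as single libraries were left out: Gap43 lost its call without Lmx1b+/- 1 or 3 or Lmx1b-/- 1 or 3 (-0.38 to -0.45), and Stmn2 (-0.49) and Tubb3 (-0.41) gained one without Lmx1b+/- 2. With the length trend removed Gap43 was at -0.26 (adjusted p = 0.199), not called, and Stmn2 at -0.47 (adjusted p = 0.0457), called. Ank3 was at 0.01 with the length trend removed (adjusted p = 0.945), and its call was lost without Lmx1b+/- 2 or 3 or any 1 of the Lmx1b-/- libraries (0.35 to 0.45).

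Of the 24 further mature axon genes 18 were called higher in Lmx1b-/- than in Lmx1b+/- and 0 lower (median 0.62). By sign 22 were higher and 2 lower, and 11.5% of all genes were called higher and 14% lower. Kcna2 was at 0.91 (SE 0.11, edgeR adjusted p = 9.91e-05) and Kcnq3, a subunit of the M-current channel at initial segments, at 0.85 (SE 0.10, adjusted p = 9.94e-05). Of the 24 further outgrowth genes 5 were called higher and 4 lower (median -0.06), with 10 above 0 and 14 below. Map1b was at 0.65 (SE 0.14, edgeR adjusted p = 0.00399), Stmn3 at -0.52 (SE 0.11, adjusted p = 0.00436) and Cfl1 at -0.54 (SE 0.12, adjusted p = 0.00455).

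The WT libraries of the experiments were fitted together to put an error on the difference between neonatal and prenatal brainstem, in which age and experiment cannot be told apart. Of the 19679 genes tested 24.3% were called higher in neonatal WT and 25% lower. All 5 growth cone genes were called lower and 0 higher, and 4 of the 5 mature axon genes were called higher and 0 lower. In this joint scaling Dpysl3 averaged 69.2 CPM (SD 29.1, n = 3) in neonatal and 1738 CPM (SD 112, n = 3) in prenatal WT, a log2 fold change of -4.50 (SE 0.26, edgeR adjusted p = 9.52e-10). Gap43 averaged 84.1 against 585 CPM (log2 fold change -2.82, SE 0.21, edgeR adjusted p = 1.34e-08). Stmn2 (-1.97), Tubb3 (-1.64) and Dpysl2 (-0.95) followed in that order.

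Nefh had the opposite and largest rise, averaging 648 CPM (SD 189, n = 3) in neonatal and 51.4 CPM (SD 11.7, n = 3) in prenatal WT (log2 fold change 3.67, SE 0.24, edgeR adjusted p = 3.65e-09). Cntnap1 was higher by 2.18 (SE 0.24), Cntn2 by 2.09 (SE 0.20) and Nfasc by 1.53 (SE 0.18), with adjusted p of 3.49e-06 or less. Ank3 was not called, averaging 614 and 464 CPM (log2 difference 0.41, 95% interval -0.015 to 0.83, edgeR adjusted p = 0.103); without neonatal WT 1 it was called at 0.58 (adjusted p = 0.0175), and with the length trend removed at 0.73 (adjusted p = 0.00874). The 10 oligodendrocyte markers summed to 14046 to 24398 CPM in the neonatal and 142 to 272 CPM in the prenatal libraries, and 9 of them were called higher in neonatal WT. Of 6 progenitor markers all 6 were called lower in neonatal WT. The labels hold no age against which these levels could be set, so the comparison is between libraries of uncertain age.

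Of 24 further outgrowth genes 19 were called lower in neonatal WT and 1 higher, where 25% of all genes were called lower and 24.3% higher (median -1.86, beside -0.03 over all genes). Dcx, encoding doublecortin of immature neurons, averaged 18 against 904 CPM (log2 fold change -5.76, SE 0.23, edgeR adjusted p = 2.89e-11), Sox11, a transcription factor of young neurons, was at -5.48 (SE 0.24) and Dpysl5, another collapsin response mediator, at -3.55 (SE 0.20). The exception was Nrn1, encoding the secreted or membrane-bound neuritin, at 0.43 (SE 0.16, adjusted p = 0.0378). Of 24 mature axon genes 12 were called higher, 3 lower and 9 not at all, with 7 below 0 (median 0.46). The sodium channel β subunit genes Scn4b (7.68, SE 0.32) and Scn2b (2.48, SE 0.16) rose, each with an edgeR adjusted p of 3.99e-09 or less, while Mapt, encoding the axonal microtubule protein tau, was lower at -1.81 (SE 0.19, adjusted p = 6.21e-07).

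Levels were set between genes only per length, as the deposited RPKM. In prenatal WT Tubb3 was the highest of the 10 with a mean of 676 RPKM (SD 120, n = 3), followed by Gap43 at 420 (SD 82.5), Dpysl3 at 287 (SD 52.6), Stmn2 at 211 (SD 37.4) and Dpysl2 at 154 (SD 25). Across libraries each of these overlapped its neighbour in the order except Tubb3, whose lowest library (592 RPKM) lay above the highest of Gap43 (507 RPKM). Within each prenatal WT library the order of these growth cone genes was the same. The mature axon genes lay far below, from Ank3 at 14.4 (SD 1.82) and Nefh at 13.8 (SD 2.48), which overlapped, to Cntnap1 at 6.27 RPKM (SD 1.40). In neonatal WT Tubb3 at 185 (SD 26) and Nefh at 150 RPKM (SD 47.1) were the highest and overlapped, and Dpysl3 was the lowest at 9.6 RPKM (SD 4.07). Dpysl2 at 66.6, Gap43 at 50.6 and Stmn2 at 44.9 RPKM came next, then Cntn2 at 34.8, Nfasc at 24.8, Cntnap1 at 23.1 and Ank3 at 16.4 RPKM.

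The ratio of the summed RPKM of the growth cone genes to that of the mature axon genes was taken within each library, so that no scaling between libraries enters. It was 1.66, 1.8 and 1.06 in neonatal WT 1 to 3 and 2.47, 2.56 and 3.1 in AMPK-/- 1 to 3. In prenatal libraries it was 31.1, 27.7 and 37.2 in WT, 69.9, 52.3 and 72.9 in Lmx1b+/-, and 29.5, 32.6 and 32 in Lmx1b-/-. The ranges of AMPK-/- and neonatal WT were apart, as were those of Lmx1b+/- and the other prenatal genotypes, while Lmx1b-/- lay inside WT. An exact two-sided permutation test of 3 against 3 libraries cannot give a p below 0.1, so none is given. Tubb3 and Nefh had the highest mean RPKM of the 10 in both neonatal genotypes, and the length trend described above enters the ratio. The Gap43 to Cntn2 ratio of RPKM alone ran from 0.929 to 2.04 in neonatal WT, from 6.59 to 8.08 in AMPK-/-, from 31.6 to 53.7 in prenatal WT, from 74.9 to 117 in Lmx1b+/- and from 35.2 to 53.3 in Lmx1b-/-.

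**Figure D4:**
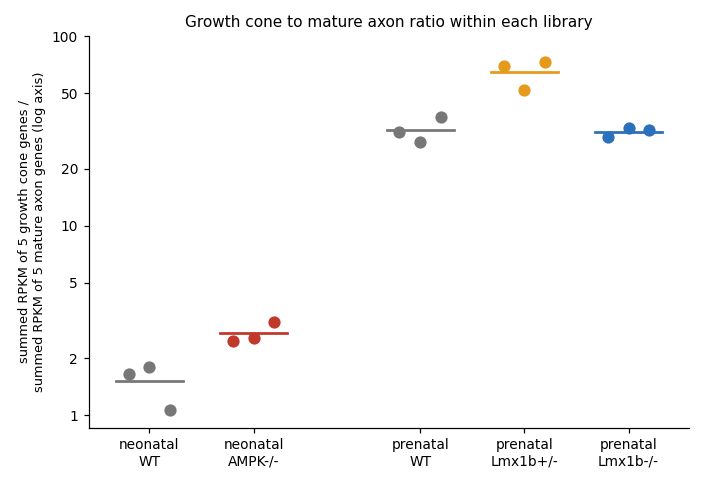
Ratio of the summed RPKM of the 5 growth cone genes to that of the 5 mature axon genes in each library (points) with the group mean (line), on a log axis. AMPK-/- libraries at 2.47 to 3.1 lie above neonatal WT at 1.06 to 1.8, and Lmx1b+/- libraries at 52.3 to 72.9 lie above both other prenatal genotypes.

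Some members share their locus with other annotated genes, and whether the counting used strand is not stated. Cntnap1 overlaps Plekhh3 and Ccr10 on the opposite strand, which held 439 and 40 counts over the neonatal libraries against 6837 for Cntnap1, and 1718 and 75 against 8176 over the prenatal libraries. Its values, the lowest of the 10 in the prenatal libraries, are the most open to such reads. Nfasc overlaps the antisense gene Gm10538 (14 and 78 counts against 17477 and 33894). Tubb3 overlaps a readthrough gene that is not in the count tables.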

How the data were processed

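Brainstem polyA RNA was prepared with a directional kit and sequenced by the authors, who aligned reads with HISAT2 to GRCm39 according to the submitters' processing notes; the counting tool and its strand setting are not given in the sources used here. The deposited tables hold, per Ensembl gene, raw counts and RPKM for each library. One neonatal WT column bears an unexplained suffix and was taken as WT 3. Symbols were found for 90.7% of the 57180 identifiers. Counts were tested with edgeR 4.0.16 in R 4.3.3 (filterByExpr, TMM, glmQLFit and glmQLFTest, Benjamini-Hochberg adjusted p under 0.05), separately for the 6 neonatal and the 9 prenatal libraries, and jointly for the 6 WT libraries. The standard error is the unshrunk log2 fold change divided by the root of F. Depth was 291212 to 37441679 counts, and limits cover counting error only. RPKM was used for levels between genes and with limma 3.58.1; DESeq2 1.42.0 was an alternative. The reference at hand was GRCm38, so it gave promoter sequences, neighbours and overlaps only. Scripts were tested on simulated data; where the simulated spread differed from gene to gene, the share of false calls was above the threshold in each comparison simulated, so an adjusted p just under 0.05 is weaker than it reads. The 10 genes, the 2 lists of 24 genes and the marker lists were chosen with earlier results of these data known. Named from the further lists were the 3 called genes with the smallest adjusted p and, in the AMPK and WT comparisons, the called genes with the largest change. Some genes that this rule selects are not reported here.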

Additional observations from a re-analysis of the deposited data

How the results depend on the processing

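The neonatal counts of genes called depended most on the processing. In AMPK-/- against WT the 3 growth cone and 4 mature axon genes called became 0 and 0 with limma on log2(RPKM + 1) or log2(RPKM + 0.1) and without both shallow libraries, and the 4 mature axon genes became 2 with the length trend removed and 0 with length and GC trends removed. In Lmx1b+/- against WT the 3 growth cone genes called became 1 with library size only and 1 with limma at either pseudocount, and the 5 mature axon genes became 2 with length and GC trends removed. In Lmx1b-/- against Lmx1b+/- the 2 growth cone genes called became 4 with DESeq2 and 1 with library size only, with limma at either pseudocount and with length and GC trends removed. The cause was not tested. Leaving out single libraries gave 2 to 3 growth cone and 2 to 4 mature axon genes in the AMPK comparison, 2 to 4 and 5 in Lmx1b+/- against WT, 0 and 0 in Lmx1b-/- against WT, 1 to 4 and 4 to 5 in Lmx1b-/- against Lmx1b+/-, and 5 and 4 to 5 between WT stages. The GC trend and the removal of abundant genes were added after seeing the data.

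Some differences that were not called changed sign. In AMPK-/- Nefh was at -0.0028 with library size only and ranged from -0.0014 to 0.4265 as libraries were left out. Dpysl3 in Lmx1b+/- was at 0.1155 with the length trend removed, 0.1367 with length and GC trends removed, and -0.1899 to 0.0305 as libraries were left out; against Lmx1b+/- it was at -0.0731, -0.0821 and -0.0361 to 0.1949 in Lmx1b-/-. In Lmx1b-/- against WT Dpysl3 was at -0.0211 (library size only), -0.0053 (limma, either pseudocount) and -0.0061 (only 6 libraries), Nfasc was at 0.019 with length and GC trends removed, and leaving out libraries gave -0.0034 to 0.1118 for Gap43, -0.158 to 0.0322 for Dpysl2, -0.0252 to 0.0454 for Dpysl3, -0.085 to 0.2273 for Cntn2 and -0.275 to 0.1363 for Cntnap1.

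Library size only shifted the median log2 difference of all genes by -0.18 (AMPK), -0.24 (Lmx1b+/-), 0.20 (Lmx1b-/- against Lmx1b+/-) and -0.27 (WT stages), and took the share of called genes that were higher from 42.1 to 14.2%, 53 to 26.1%, 45.1 to 74.2% and 49.3 to 33%. The 1555 genes called in the AMPK comparison were 825 with at least 10 counts in every library, 667 with DESeq2, 901 and 324 with length and with length and GC trends removed, 0 with limma, 6 without both shallow libraries and 548 to 2958 as single libraries were left out (2958 without WT 1, 548 without WT 3, 921 without AMPK-/- 1 and 605 without AMPK-/- 3). The 4 genes called in Lmx1b-/- against WT were 19 with library size only, 329 with every gene that had a count 13 in a fit of 6 libraries, 35 with DESeq2 and 3 to 11 as libraries were left out (10 without WT 2, 11 without Lmx1b-/- 2). The 5544 in Lmx1b-/- against Lmx1b+/- were 3663 with the length trend removed and 3500 to 6054 as libraries were left out (3602 without Lmx1b-/- 1, 3500 without Lmx1b-/- 3), and the 9703 between WT stages were 3027 with at least 10 counts in every library.

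With the replicate number as a block the counts of members called were 3 and 4 in the AMPK comparison, 3 and 5 in Lmx1b+/-, 0 and 0 in Lmx1b-/- and 2 and 5 between these, as without it. Deviations of same-numbered libraries correlated at -0.18 to 0.15. This correlation was not computed for differently numbered libraries and the labels give no litter, so whether the numbers pair the libraries is not known. The 2 shallow libraries limit what the neonatal comparison can show: without them 2 libraries a genotype remain.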

Other observations

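The partners of Nefh in the neurofilament were looked at after the values were seen. Nefl, encoding the light chain that forms the core of the filament, was the 1 gene called higher among the 24 further mature axon genes in Lmx1b+/- against WT, at 576 against 380 CPM (log2 fold change 0.60, SE 0.14, edgeR adjusted p = 0.00471), where Nefh fell by 0.83 on the log2 scale. Nefm, the medium chain, averaged 287 against 318 CPM (log2 difference -0.15, adjusted p = 0.499) and Ina, encoding internexin, the filament protein of young neurons, 407 against 426 CPM (-0.06, adjusted p = 0.699). In Lmx1b-/- against Lmx1b+/- Nefm was called higher with Nefh (0.52, SE 0.16, adjusted p = 0.0302), while Nefl was at -0.17 (adjusted p = 0.419). In AMPK-/- against WT none of the 4 filament genes was called, with log2 differences of 0.36 for Nefl, 0.23 for Nefm, 0.16 for Nefh and -0.05 for Ina. Between WT stages Nefh (3.67), Nefm (1.71, adjusted p = 9.08e-06) and Nefl (1.31, adjusted p = 2.03e-05) were higher in neonatal WT and Ina was lower (-0.44, adjusted p = 0.0385). The ratio of Nefh to Cntn2 in RPKM was 3.49 to 4.74 in neonatal WT and 7.7 to 9.49 in AMPK-/-, and 1.06 to 1.81 in prenatal WT, 0.979 to 1.5 in Lmx1b+/- and 1.26 to 2.27 in Lmx1b-/-.

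Cntn1, whose product binds Caspr at the paranode, fell with Cntnap1 in Lmx1b+/- (212 against 329 CPM, log2 fold change -0.64, SE 0.15, adjusted p = 0.00438), while Cntnap2, encoding the Caspr2 partner of TAG-1, was at -0.19 (SE 0.12, adjusted p = 0.226). In AMPK-/-, where Cntnap1 and Cntn2 fell, Cntn1 was at 0.23 (SE 0.16, adjusted p = 0.376) and Cntnap2 at -0.01 (SE 0.18, adjusted p = 0.985).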
